A study of Rattus norvegicus with 49 samples.

Results

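The antioxidant and redox enzymes of the rat thyroid were taken as 38 genes chosen by name, from the superoxide dismutases, catalase, glutathione peroxidases, peroxiredoxins, the thioredoxin and glutaredoxin system, glutathione synthesis, glutathione transferases, the Nrf2 regulators with the heme oxygenases and Nqo1, and selenoproteins P and W. All 38 had a probe, out of 15154 gene symbols on the array. For the 3 genes with 2 probes, the brighter probe on average stood for the gene.

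Thyroid RNA of male Sprague Dawley rats was measured on 49 one-colour arrays in 13 groups, with each array taken as 1 rat. Young rats were injected with 131I at 5 weeks of age. They received 50 kBq and were killed at 4, 7 or 10 months of age, or received 0.5, 5 or 500 kBq and were killed at 10 months. Adult rats received 50 kBq at 17 weeks and were killed at 7, 10 or 13 months, so that injected rats of both ages were studied 3, 6 and 9 months after injection. The controls were untreated rats of 4, 7, 10 and 13 months. Groups held 4 arrays, except 3 at 5 kBq and 3 each in the controls of 7 and 13 months.

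Follicular thyrocytes make hydrogen peroxide on purpose, because attaching iodine to thyroglobulin requires it, and they carry enzymes that remove the excess. Glutathione peroxidases draw on glutathione, which glutathione reductase keeps reduced, while peroxiredoxins draw on thioredoxin, which thioredoxin reductase keeps reduced. Nrf2, held in check by Keap1, turns on many of these genes through the antioxidant response element, and ionizing radiation is a known source of reactive oxygen species.

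The core of the antioxidant response element, the letters TGACNNNGC, was looked for on both strands in the 250 bases before each start site, because several members are known to be turned on by Nrf2. RefSeq promoter windows of the GRCr8 assembly were at hand for 33 of the 38 members. The letters were present in 7 of the 33, or 21.2%, against 10.1% of all 33469 promoters. The match is shown in capitals with the bases around it, 5′ to 3′ on the strand of the gene. The capitals are the reverse complement of the motif where it lies on the opposite strand.
Gclm, chr2:213031953-213031981, plus strand, motif on the opposite strand: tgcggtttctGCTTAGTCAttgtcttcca
Gpx2, chr6:101230034-101230056, minus strand, motif on the opposite strand: acctggtttcGCTAAGTCAttct
Gstp1, chr1:210769748-210769776, minus strand, motif on the same strand: tccactgtgtTGACTCAGCatccggggcg
Hmox2, chr10:11337689-11337717, minus strand, motif on the opposite strand: gtcttggaagGCAGTGTCAgcttggccag
Prdx1, chr5:135383761-135383789, plus strand, motif on the opposite strand: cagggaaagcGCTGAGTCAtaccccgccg
Sod2, chr1:50050185-50050213, minus strand, motif on the opposite strand: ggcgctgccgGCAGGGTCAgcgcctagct
Txnrd1, chr7:22755964-22755992, minus strand, motif on the opposite strand: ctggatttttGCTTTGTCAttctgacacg
The first base of the match lay between 13 bases before the start of Gpx2 and 172 bases before that of Gclm. A match is only a stretch of letters and no measured binding site. Of the members called below, Txnrd1 and Gstp1 have these letters, the windows of Prdx3, Txn2, Gsto1, Gstm1 and Mgst3 do not, and Gsr had no window here.

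Levels are given as log2 of the background-subtracted signal minus the 75th percentile of the array, so that a level is relative to the bright end of its own array and is not set against the level of another probe. To be called, a member needed an adjusted p (Benjamini-Hochberg) under 0.01 and a change over 1.5-fold in 1 limma fit of all 13 groups. Members at an unadjusted p under 0.05 were counted as a weaker description. The share of all tested probes that passed the same rule stands beside the main counts of members. It was not taken for the alternative settings given at the end. Single members were also compared by an exact permutation test, two-sided, which cannot give a p below 0.0286 for 4 arrays against 4 or against 3. That p is printed only for members whose groups do not overlap. It restates the lack of overlap and is no separate support for a difference.

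Of the 49 arrays, 3 stood apart from the rest. The 50 kBq array 2 of young rats killed at 4 months had a 75th percentile of 61.0 signal units, where the median array had 2685, and 43.1% of its spots were well above background against a median of 75%. The 50 kBq array 3 of the same group and array 2 of the 7-month controls carried far less thyroid signal than the others. Thyroglobulin stood at 0.14 and -0.69 there, against 6.41 to 7.91 on the 46 arrays without these 3. The main counts of members called are therefore given in all 49 arrays and without these 3, which leaves 2 arrays in each of the 2 groups concerned. Some other values are given in 1 fit only. Arrays 1 and 2 of the 13-month controls were the closest of all 1176 array pairs, so they may not be independent. The median absolute deviation of their probe differences, scaled as an SD, was 0.16, against 0.38 for the median pair of 1 group. Arrays 1 and 2 of adults 6 months after 50 kBq came next at 0.18, and the same may hold for them. The labelled tissue was borne out by thyrocyte markers on the 46 arrays, where 11 of the 12 listed genes were well above background on every array of the groups compared below at 13 months, and Slc26a4 on 3 of all 49.

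On both arrays poor in thyroid signal, 4 of the 38 members lay below all 46 others, as did 8.61% of all tested probes, and 4 lay above them, as did 11.3%. Gpx2, the glutathione peroxidase of epithelia, stood at -0.89 on the array of the young rat and at -2.46 on that of the control, against 2.15 to 5.29 elsewhere. Gstp1, Prdx1 and Prdx4 were the other 3 below, with Prdx4, the peroxiredoxin of the endoplasmic reticulum, at -1.14 and -1.48 against -0.49 to 0.45. Selenow, a selenoprotein abundant in muscle, stood at 4.81 and 4.70 against -0.33 to 4.01, and Gpx4, Sod2 and Keap1 were the other 3 above.

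Of the 38 members, 37 were tested. Gclm, the modifier subunit of glutamate-cysteine ligase, was well above background on 1 of 49 arrays, so its level is only bounded and it was left out. Every other member was well above background on at least 47 arrays. Gpx3 missed the mark on 2 arrays, and Cat, Gss, Gstm1, Hmox1, Txnrd1 and Txnrd2 on 1 array each.

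The members differed widely in how steady they were among rats of 1 group. Without the 3 arrays the within-group SD was largest for Glrx, the cytosolic glutaredoxin, at 1.00 on the log2 scale, followed by Selenow at 0.84 and Gpx3, the secreted glutathione peroxidase, at 0.62. It was smallest for Hmox2, the constitutive heme oxygenase, at 0.13, and was 0.15 for Keap1 and for Prdx2, 0.17 for Nfe2l2, the gene of Nrf2, and 0.18 for Sod1, the cytosolic superoxide dismutase. With all 49 arrays the SD of Gpx2 rose from 0.55 to 1.26, the highest of the 38.

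The comparison of adult rats 9 months after 50 kBq with 13-month controls was the only exposure comparison with members called, in the fit without the 3 arrays and not in that of all 49. Prdx3 and Txn2, the peroxiredoxin and thioredoxin of mitochondria, and Gsto1, an omega-class glutathione transferase, stood higher in injected rats, and Gsr, glutathione reductase, stood lower. In all 49 arrays none of the 37 members was called, against 0.676% of all probes, and 7 members had an unadjusted p under 0.05, as did 22.9% of all probes. In the 46 arrays 5 members were called against 9.58% of all probes. Of these, 4 were higher, against 3.62% of all probes, and 1 was lower, against 5.96%. In that fit 10 members had an unadjusted p under 0.05, a rule that 36% of all probes passed. The share of members called was thus near that of all probes. The median difference over the members was 0.07 and that over all probes -0.12. The 5 calls became 2 when array 1 of either group was also left out, and 3 with control arrays 1 and 2 counted as 1 sample. The 75th percentile was 1412, 1333 and 1441 signal units on the 13-month control arrays, the lowest of the 46 arrays. It was 2685, 3019, 3580 and 2426 on those of injected adults. The part of this in the differences from these controls was not tested.

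Prdx3 stood at 2.92, 2.80, 2.65 and 2.85 on the 4 arrays of injected adults and at 1.54, 1.60 and 1.65 on the 3 of 13-month controls. The groups did not overlap, and the 3 control arrays were the lowest of all 49. The difference was 1.21 ± 0.30 (SE) on the log2 scale, with a limma adjusted p of 0.0191 in 49 arrays and of 0.000753 in 46, and an exact permutation p of 0.0286.

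Txn2 stood at 2.53, 2.16, 1.75 and 2.29 in injected adults and at 1.02, 1.20 and 0.58 in the controls. The controls were again the 3 lowest of the 49 arrays. The difference was 1.25 ± 0.33 (SE), with a limma adjusted p of 0.0257 in 49 arrays and 0.00206 in 46, and an exact permutation p of 0.0286.

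Gsto1 stood at 1.36, 1.10, 1.03 and 1.11 in injected adults and at -0.22, -0.14 and -0.25 in the controls, which were once more the lowest 3 of the 49 arrays. The difference was 1.35 ± 0.37 (SE), with a limma adjusted p of 0.0306 in 49 arrays and 0.00322 in 46, and an exact permutation p of 0.0286. Gsr moved the other way, with -2.94, -3.25, -2.64 and -3.08 in injected adults and -1.60, -1.54 and -2.58 in the controls. The groups did not overlap, although control array 3 at -2.58 lay close to the highest injected array at -2.64. The Gsr difference was -1.07 ± 0.32 (SE), with a limma adjusted p of 0.0407 in 49 arrays and 0.000183 in 46, and an exact permutation p of 0.0286.

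**Figure D1:**
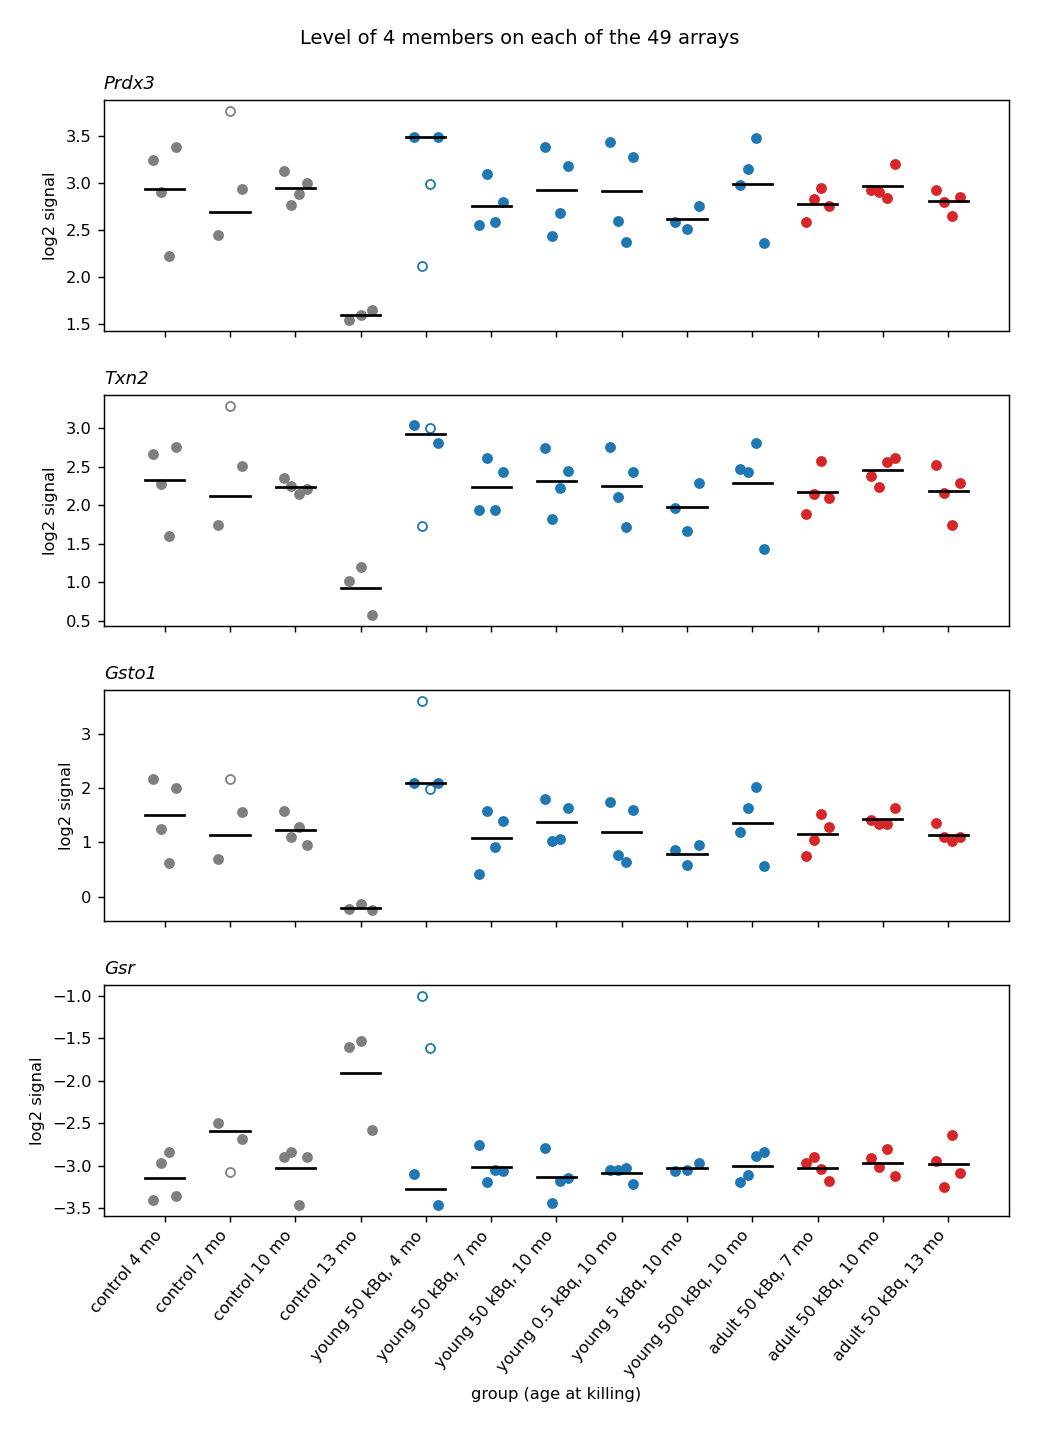
Level of Prdx3, Txn2, Gsto1 and Gsr (log2 signal minus the array's 75th percentile) on each of the 49 arrays by group, with grey points for controls, blue for young and red for adult injected rats. Open points are the 3 arrays that stand apart and lines are group means without them. The 3 arrays of the 13-month controls are the lowest of all 49 for Prdx3, Txn2 and Gsto1, and the injected adults of the same age lie among the other groups.

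The fifth member called without the 3 arrays, Txnrd1, the cytosolic thioredoxin reductase, was measured by 2 probes that disagreed. The brighter probe stood at -2.13, -2.27, -2.32 and -2.07 in injected adults and at -3.35, -3.18 and -2.30 in the 13-month controls, a difference of 0.75 with a limma adjusted p of 0.105 in 49 arrays and 0.00518 in 46. The second probe stood at -4.21, -4.56, -4.20 and -4.12 in injected adults and at -3.22, -3.43 and -3.54 in the controls, a difference of -0.87 with a limma adjusted p of 0.0426 in 49 arrays and 0.00121 in 46. The groups overlapped for the brighter probe and not for the second. Over 46 arrays the 2 probes had an r of -0.17, across arrays of mixed groups, so no direction of Txnrd1 as a gene is given. Gpx2 and Gpx4 also had 2 probes each, with an r of 0.97 and 0.73. For Gpx4, which reduces lipid peroxides in membranes, the brighter probe differed by -0.05 and the second by 0.64, with a limma adjusted p of 0.896 and 0.0400 without the 3 arrays.

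**Figure D2:**
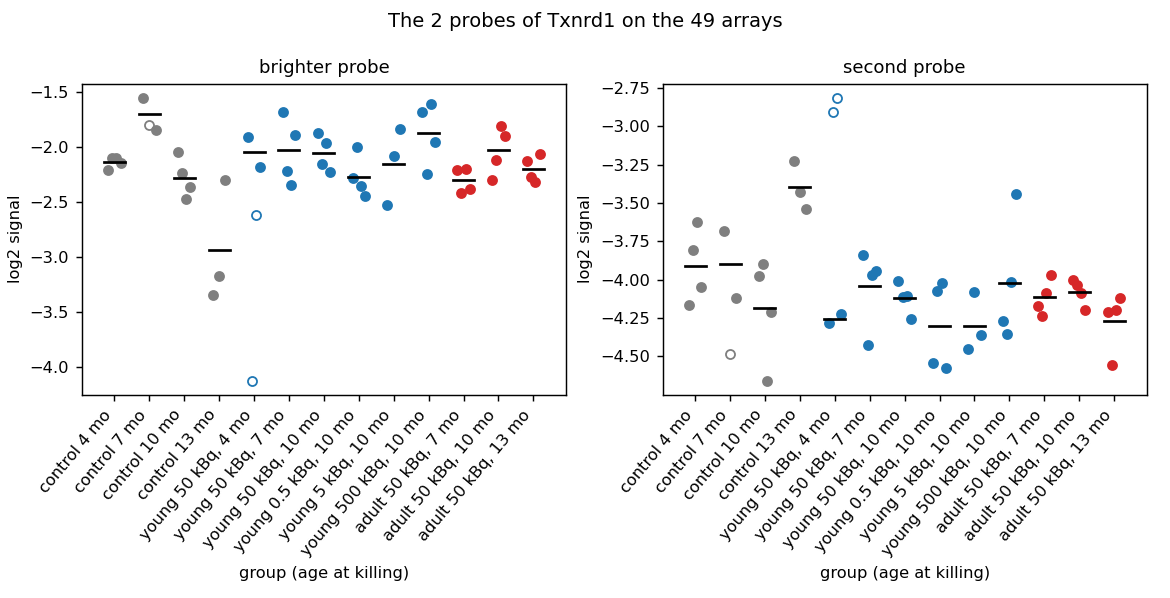
Levels of the brighter (left) and second (right) probe of Txnrd1 on the 49 arrays by group (log2 signal minus the array's 75th percentile), with open points for the 3 arrays that stand apart and lines for group means without them. The 13-month controls have the lowest group mean on the left and the highest on the right.

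Among the other members of this comparison, Gstm1, a mu-class glutathione transferase, stood at -0.63, -2.10, -1.10 and -1.27 in injected adults and at -2.43, -2.41 and -1.86 in the controls. The groups overlapped, and the difference was 0.96, with a limma adjusted p of 0.109 in 49 arrays and 0.0349 in 46. Selenow stood at 2.78, 3.33, -0.33 and 2.80 in injected adults and at 0.70, 0.84 and 0.29 in the controls. Array 3 of the injected adults thus lay below the controls and the others above them, and the difference of 1.53 had a limma adjusted p of 0.178 in 49 arrays and 0.0706 in 46. Prdx5, a peroxiredoxin of mitochondria and peroxisomes, differed by 0.48 and Sod1 by -0.36. Neither overlapped between groups, with an exact permutation p of 0.0286 each, and neither was called. For both, the share of all probes without overlap was not counted, so the lack of overlap is a description only. By role, and without the 3 arrays, where 9.58% of all probes were called, the members called were 1 of 7 peroxiredoxins and sulfiredoxin, 2 of 6 in the thioredoxin and glutaredoxin system, 1 of 3 tested in glutathione synthesis and reduction, and 1 of 5 glutathione transferases. None of the 3 superoxide dismutases, of the 6 enzymes of catalase and the glutathione peroxidases, of the 5 Nrf2, heme oxygenase and Nqo1 genes or of the 2 selenoproteins was called.

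Summed markers of thyrocytes, C cells and parathyroid also differed in this comparison, while those of skeletal muscle overlapped between the groups. In whole tissue, fewer cells of a type and less RNA per cell cannot be told apart. The summed level of the 12 skeletal muscle markers, in multiples of the 75th percentile of the array, was 231 to 384 in the 13-month controls and 4.26 to 1561 in injected adults, with at least 11 of the 12 genes well above background on every array. That of the 12 thyrocyte markers was 340 to 411 in the controls and 220 to 297 in injected adults, with 11 of 12 above background on every array. The 10 C cell markers summed to 266 to 349 in the controls and 124 to 231 in injected adults, all 10 above background, and the 5 parathyroid markers to 155 to 169 and 9.89 to 126, with 5 and at least 3 above background. The part of these tissue differences in the member differences was not tested. Array 3 of the injected adults had the lowest muscle score of the series at -8.54. On it Prdx3 was at 2.65, Txn2 at 1.75, Gsto1 at 1.03, Selenow at -0.33 and Mgst3 at 1.79.

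The arrays were scanned on 3 dates. On the date that held 2 arrays of each group, injected adults minus controls gave 1.19 for Prdx3, 1.34 for Txn2, 1.43 for Gsto1, -0.70 for Gsr, 1.28 for Gstm1, 0.60 for the brighter probe of Txnrd1 and 0.73 for Selenow. The groups overlapped there for Txnrd1 and Selenow. These members were named for differences that rest partly on the same arrays, so the values of 1 date are descriptions and no separate test.

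The same 13-month control arrays set apart the controls by age. In all 49 arrays 4 members were called between controls of 13 and of 4 months, against 5.78% of all probes, namely Prdx3, Txn2 and Gsto1 lower and Gsr higher at 13 months. In the 46 arrays 8 members were called against 23.3% of all probes. Of these, 2 were higher, against 15.6% of all probes, and 6 were lower, against 7.71%. Prdx3 was at 3.24, 2.90, 2.22 and 3.38 and Txn2 at 2.67, 2.27, 1.60 and 2.76 in the 4-month controls. All 4 arrays lay above the 13-month values given before, and the differences of 13 minus 4 months were -1.34 for Prdx3 and -1.39 for Txn2. Gsto1 was at 2.18, 1.24, 0.61 and 2.02 and Gsr at -3.41, -2.96, -2.83 and -3.36 in the 4-month controls. Again neither overlapped with 13 months, and the differences were -1.72 for Gsto1 and 1.24 for Gsr. The limma adjusted p in 49 arrays was 0.00352 for Prdx3, 0.00492 for Txn2, 0.00296 for Gsto1 and 0.00809 for Gsr. This comparison and that of injected adults share the 13-month controls, so their values for a member are not independent. On the scan date with 2 arrays of each age and on that with 1 array at 13 and 2 at 4 months, the differences were -1.47 and -1.20 for Prdx3, -1.67 and -0.98 for Txn2, -1.95 and -1.45 for Gsto1 and 1.09 and 1.56 for Gsr. The 4-month controls had muscle markers summing to 815 to 1498, thyrocyte markers to 161 to 286, C cell markers to 24.9 to 106 and squamous markers to 5.44 to 153, the last against 5.29 to 6.87 at 13 months. The part of these in the differences was not tested.

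The further members called between 13 and 4 months without the 3 arrays were Gstm1 and Mgst3, a microsomal glutathione transferase, which were lower, Gstp1, a pi-class glutathione transferase, which was higher, and the brighter probe of Txnrd1, which was lower while its second probe was 0.51 higher. The differences of 13 minus 4 months were -1.12 for Gstm1, -1.04 for Mgst3, -0.80 for Txnrd1 and 0.83 for Gstp1, with limma adjusted p of 0.00808, 0.00964, 0.00149 and 0.00845. All 4 of these missed the call in 49 arrays. The F test over the 4 control ages called 3 members, Prdx3, Gsto1 and Txn2, in 49 arrays, against 5.07% of all probes, with 13 at an unadjusted p under 0.05, against 32.6%. In 46 arrays it called 5, which added Gsr and Txnrd1, against 21.2% of all probes, with 14 at an unadjusted p under 0.05, against 49.4%. The 3 calls in 49 arrays became 0 without array 1 or without array 2 of the 13-month controls, and 1 without array 3.

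The 10-month controls lay with the 4-month ones. Prdx3 was at 3.13, 2.77, 2.88 and 3.00 and Gsto1 at 1.58, 1.09, 1.29 and 0.96 in them, and none of the 37 members had a limma adjusted p under 0.610 between 10 and 4 months without the 3 arrays. In the test of any difference among the 13 groups, 0 members were called in 49 arrays, against 0.311% of all probes, and 4 without the 3 arrays, Prdx3, Gsr, Gsto1 and Txnrd1, against 8.36%.

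**Figure D3:**
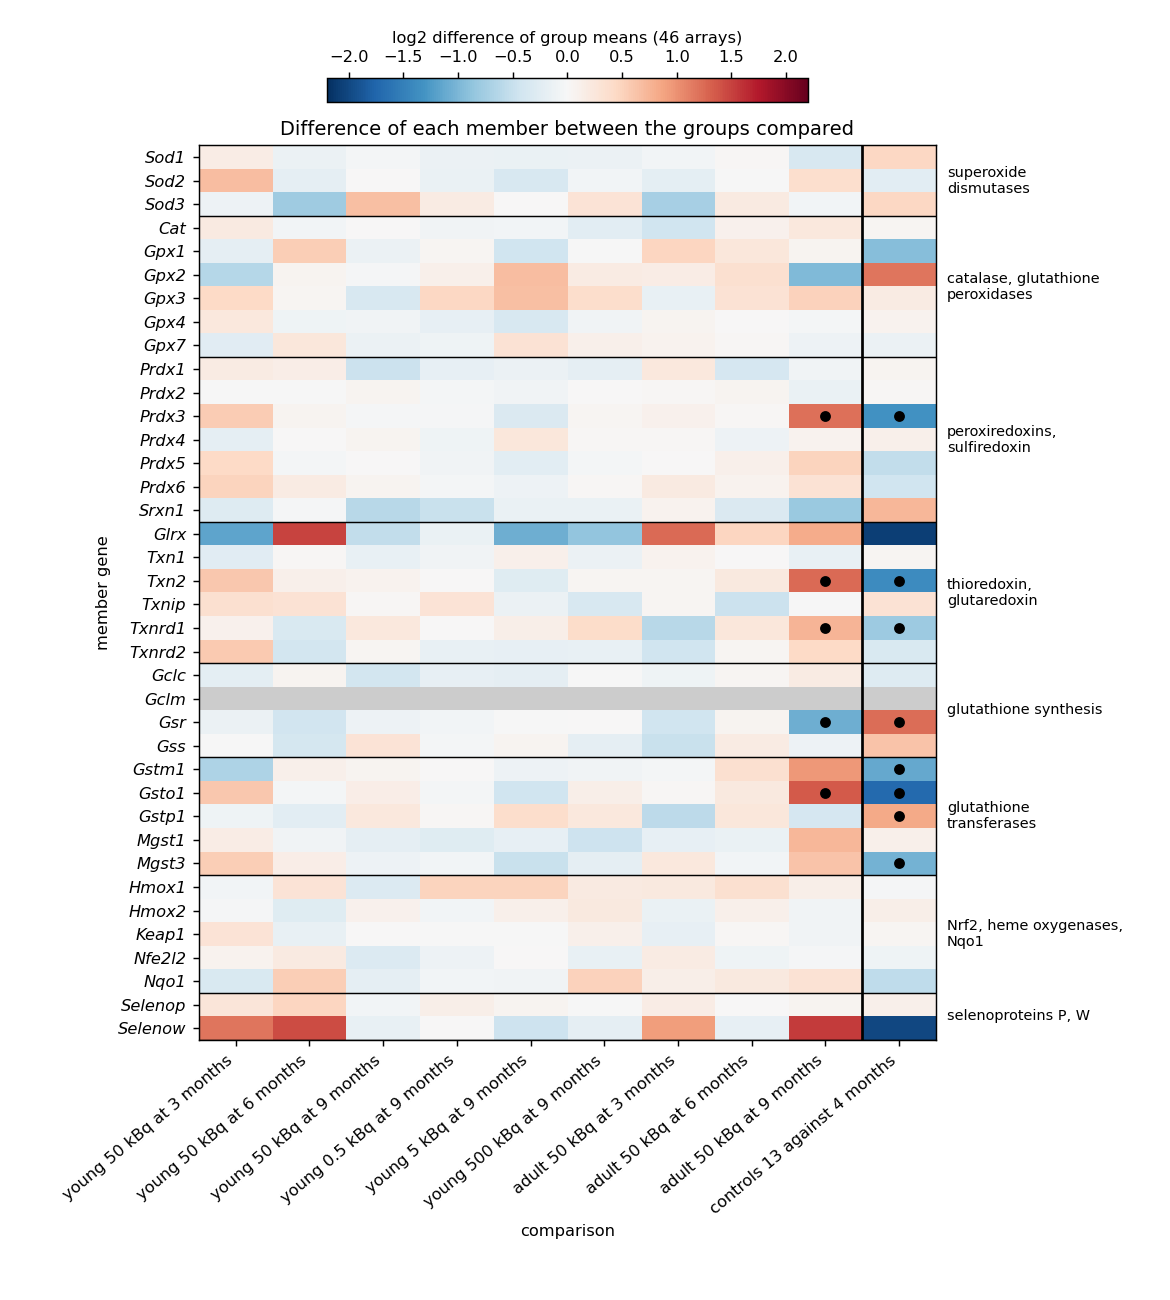
Difference of group means (log2, colour) for each of the 38 members in the 9 comparisons of injected rats with untreated rats of the same age and, right of the line, of 13-month with 4-month controls, without the 3 arrays that stand apart. Black dots mark the 5 members called in adults at 9 months and the 8 called between control ages, and Gclm, in grey, was not tested.

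In young rats 3 months after 50 kBq no member was called, with 0% of all probes called in 49 arrays and 0% without the 3 arrays. In 49 arrays 14 of the 37 members had an unadjusted p under 0.05, as did 37.6% of all probes, and without the 3 arrays 4 did, against 10.5%. Gpx4 differed by 1.00 and by 0.23 without the 3 arrays, Sod1 by 0.64 and 0.16, Mgst3 by 1.09 and 0.55, and Selenop, the selenium transport protein of plasma, by 0.97 and 0.26. Gsr turned from 0.85 to -0.13. These values rested on the arrays 2 and 3 of the injected group. Sod2, the mitochondrial superoxide dismutase, kept most of its size, with 0.78 and then 0.67. It stood at 2.54, 2.46, 3.20 and 2.70 in injected rats, of which 2.46 and 3.20 are the arrays that stand apart, and at 2.36, 1.78, 1.44 and 2.21 in controls. All 4 lay above the controls, and the limma adjusted p was 0.0295 in 49 arrays and 0.459 in 46. The other 3 at an unadjusted p under 0.05 without the 3 arrays were Prdx5 at 0.43, Prdx6, the 1-cysteine peroxiredoxin, at 0.50, and Keap1 at 0.29.

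In young rats 6 months after 50 kBq 0 members were called, against 0% of all probes in 49 arrays and 0.0250% without the 3 arrays, and 4 and then 1 had an unadjusted p under 0.05, against 6.82% and 10.4%. In adults 3 months after 50 kBq 0 were called, against 0% and 0.0333% of all probes, and 3 and then 1 had an unadjusted p under 0.05, against 4.92% and 8.05%. Both comparisons use the 7-month controls, of which array 2 was poor in thyroid signal. Gpx2 was 2.05 higher in the young and 2.16 higher in the adults in 49 arrays, and 0.05 and 0.16 without the 3 arrays. Gpx7, a glutathione peroxidase of the endoplasmic reticulum, fell back likewise from 0.83 to 0.25 in the young and from 0.67 to 0.08 in the adults, and Prdx4 from 0.53 to 0.00 and from 0.55 to 0.02. Nqo1, a quinone reductase and a common Nrf2 target, differed by 0.85 and 0.54 in the young. The single member at an unadjusted p under 0.05 without the 3 arrays was Hmox2 at -0.26 in the young and the brighter probe of Txnrd1 at -0.60 in the adults.

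In adults 6 months after 50 kBq 0 members were called, against 0% of all probes in either fit, and 0 had an unadjusted p under 0.05 in either fit, against 0.813% and 3.67% of all probes by the same limma test. The largest difference of any member was 0.47 in size.

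At 9 months after injection of young rats, 4 activities were compared with the same 10-month controls. No member was called at any activity. The share of all probes called was 0% at 0.5 kBq in either fit, 0.0124% in 49 arrays and 0.0125% without the 3 arrays at 5 kBq, 0.0124% and 0.0125% at 50 kBq, and 0% in either fit at 500 kBq. Members at an unadjusted p under 0.05 were 0 in either fit at 0.5 kBq, against 0.962% and 2.49% of all probes, and 0 in either fit at 5 kBq, against 1.89% and 6.48%. At 50 kBq they were 1 and then 2, against 1.48% and 4.85%, and at 500 kBq 0 and then 2, against 1.68% and 5.19%. The median member differed by -0.05, -0.11, -0.03 and -0.01 at 0.5, 5, 50 and 500 kBq without the 3 arrays, and the median probe by -0.00, -0.01, 0.05 and 0.05.

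Prdx1, the cytosolic peroxiredoxin, stood at 3.34, 3.16, 2.93 and 3.46 after 50 kBq and at 3.67, 3.46, 3.72 and 3.95 in the 10-month controls. The groups just failed to overlap, and the difference was -0.48 ± 0.23 (SE), with an exact permutation p of 0.0286 and a limma adjusted p of 1.00 in 49 arrays and 0.996 in 46. At the other activities Prdx1 overlapped with the controls. For this and for Hmox2 next, the share of all probes without overlap was not counted. Hmox2 stood at 1.94, 2.02, 2.15 and 1.94 after 500 kBq and at 1.85, 1.84, 1.58 and 1.90 in the controls, without overlap, a difference of 0.22 with an exact permutation p of 0.0286 and a limma adjusted p of 0.936 without the 3 arrays. Nfe2l2 at 50 kBq, with -0.30, and the brighter probe of Txnrd1 at 500 kBq, with 0.41, were the other 2 members at an unadjusted p under 0.05. As a slope per 10-fold rise in activity over the 4 injected groups, 0 members were called, against 0% of all probes in 49 arrays and 0% without the 3 arrays. The slopes of Hmox2, Txnip, the thioredoxin-binding arrestin, and Txnrd1 were 0.08, -0.18 and 0.13 per 10-fold, each with a limma adjusted p of 1.00.

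**Figure D4:**
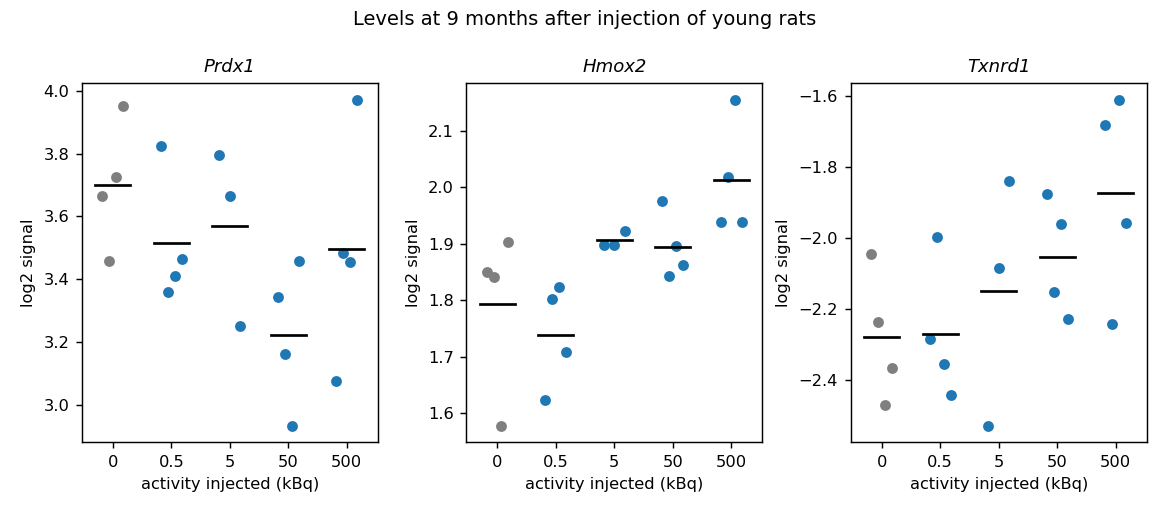
Levels of Prdx1, Hmox2 and the brighter probe of Txnrd1 (log2 signal minus the array's 75th percentile) against the activity injected into young rats 9 months earlier, in kBq with 0 for untreated controls and equal steps between groups. Lines are group means. Prdx1 does not overlap with the controls at 50 kBq and Hmox2 does not at 500 kBq, and the share of all probes without overlap was not counted.

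Whether the effect of 50 kBq differed between times or ages was tested as a difference of 2 effects. No member was called in any of the 5 tests. The share of all probes called in 49 arrays was 0% each for young at 9 against 3 months, adults at 9 against 3 months, and adults against young at 3, 6 and 9 months. In 46 arrays it was 0% for young at 9 against 3 months, 0.2% for adults at 9 against 3 months, and 0.00833%, 0.00833% and 2.43% for adults against young at 3, 6 and 9 months. In the last of these the effect in adults exceeded that in the young by 1.23 for Prdx3 and 1.18 for Txn2 and lay below it by -0.96 for Gsr, with limma adjusted p of 0.0191, 0.0474 and 0.0188 without the 3 arrays and 0.194, 0.245 and 0.313 in 49 arrays. In young rats at 9 months Prdx3 had not differed from its controls beyond -0.02. The tests with adults at 9 months again use the 13-month controls.

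Some members varied with the markers of neighbouring tissue. Glrx was highest on arrays with squamous epithelium markers such as keratins, and 9 of its 10 highest arrays were among the 10 highest by the squamous score. At the low end only 2 of the 10 lowest arrays of Glrx were among the 10 lowest by that score. Its 5 highest levels, 2.11, 2.00, 1.86, 1.65 and 1.59, were on arrays with squamous scores of 4.69, 4.91, 4.65, 4.52 and 5.03. The 5 arrays lowest in Selenow and in Mgst3 were the 5 lowest in muscle score. At the other end the match was looser, with 6 of the 10 highest arrays of Selenow and 5 of the 10 of Mgst3 among the 10 highest in muscle score. The 5 arrays lowest in muscle score included all 3 of the 13-month controls. Gpx2 had its 2 lowest levels on the 2 arrays poorest in thyrocyte markers, and 5 of its 10 highest arrays were among the 10 highest in thyrocyte score. Over the 49 arrays these are descriptions, since all values come from the same hybridisations, and no part of a group difference was assigned to them.

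**Figure D5:**
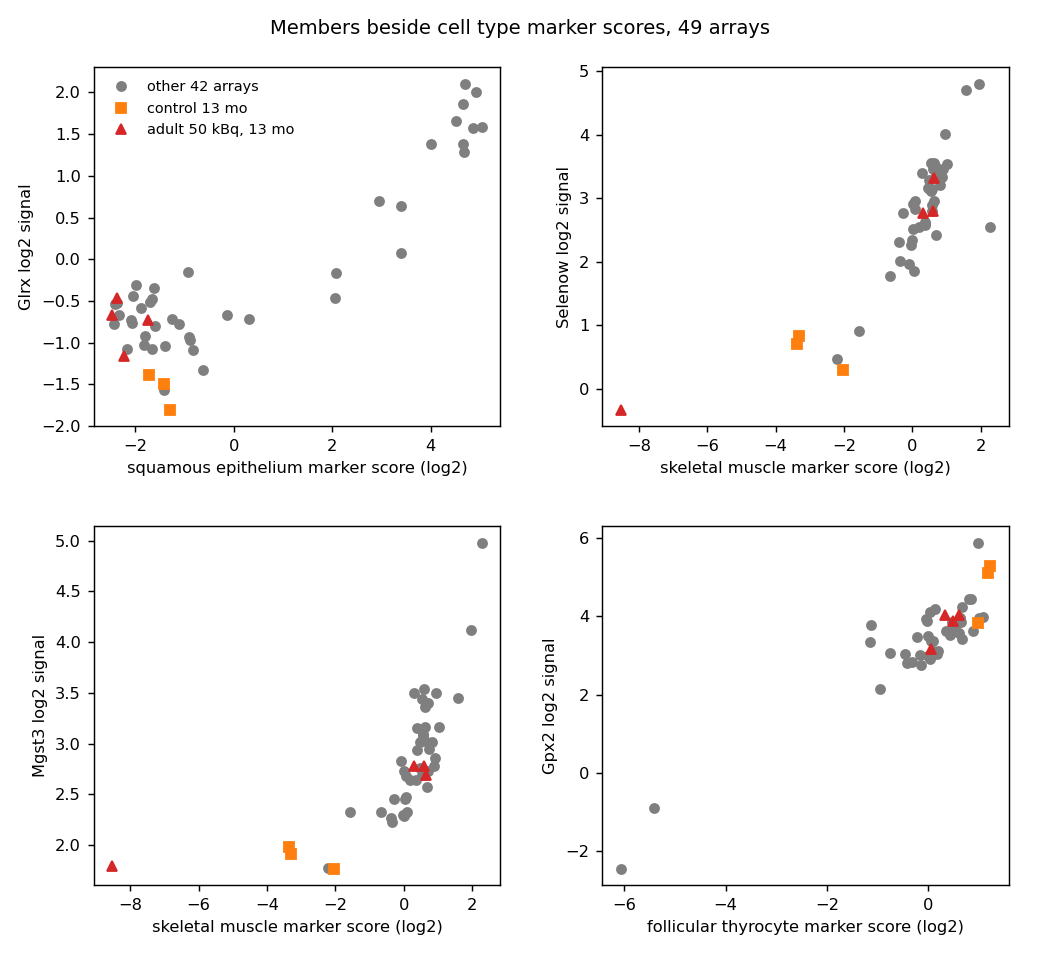
Levels of Glrx, Selenow, Mgst3 and Gpx2 (log2 signal minus the array's 75th percentile) against a marker score of squamous epithelium, skeletal muscle, skeletal muscle and follicular thyrocytes (mean log2 deviation of the marker genes), with 1 point for each of the 49 arrays. The arrays of 13-month controls and of adults 9 months after 50 kBq are marked, and the 5 lowest arrays for Selenow and for Mgst3 are the 5 lowest in muscle score.

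Other genes of the same chemistry were read from 6 lists, and values are those without the 3 arrays. In all 49 arrays the lists held 1 gene called in adults at 9 months, in NADPH supply, and 0, 1, 3, 4, 2 and 1 between control ages in the order given here. In the 8 exposure comparisons other than adults at 9 months, 0 genes of any of these lists were called. Over all probes 15.6% were called higher and 7.71% lower between control ages, and 3.62% higher and 5.96% lower in adults at 9 months. The counts of a list are read against these shares, and none was tested against them. Of the 9 genes of peroxide generation in the thyroid, 3 were called higher and none lower in controls of 13 against 4 months, namely Duox2, the peroxide-making oxidase of thyrocytes, at 1.68, its maturation factor Duoxa2 at 1.53 and Cyba at 0.82, and none was called in adults at 9 months. Thyrocyte markers moved with them, as given before, and Duox2 is one of that list. Of 14 tested of 16 genes that supply NADPH, 1 was higher and 2 were lower between control ages, and 1 was higher and 1 lower in adults at 9 months. Mthfd2, a mitochondrial folate enzyme, was 1.79 between control ages and -1.97 in adults, while Idh1, the cytosolic isocitrate dehydrogenase, was -0.66 and 0.64. Of 19 tested of 22 further selenoproteins and selenium genes, 4 were higher and 0 lower between control ages, and 0 higher and 2 lower in adults at 9 months, against the shares just given. Selenom was 1.56 and -1.15 in the 2 comparisons, and Sephs2, which makes selenophosphate, 0.88 and -0.71.

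Of 28 tested of 31 other glutathione genes, 6 were higher (15.6% of all probes) and 5 lower (7.71%) between control ages, and 0 higher (3.62%) and 1 lower (5.96%) in adults at 9 months. Gstm2 and Gstm3, mu-class transferases that may share signal with Gstm1 through their likeness, were -2.29 and -2.62 between control ages. Ggct, which breaks down gamma-glutamyl peptides, was 1.37 between control ages and -1.49 in adults. Of 26 other genes of the Nrf2 pathway, all tested, 4 were higher and 3 lower between control ages, and 1 higher and 2 lower in adults, counts near the same shares. Cul3, the ligase scaffold that serves Keap1, was -1.03 and 0.99, Bach1, a repressor at the same element, 0.95 and -1.06, and Ephx1, microsomal epoxide hydrolase, 1.88 between control ages. Of 19 tested of 24 genes of stress and repair of oxidised protein, 4 were higher and 0 lower between control ages, and 0 higher and 2 lower in adults, against the same shares. Qsox1, which forms disulfides in secreted proteins, was 1.74 and -1.20, and Mt3, a metallothionein, 1.98 and -1.39. All of these pairs again share the 13-month controls.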

How the data were processed

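Members and gene lists were chosen with earlier results of these data known. The authors deposited 1 scanner file per array, made with Agilent Feature Extraction 10.7.3.1, whose processed signal is an intensity, already corrected for background at each spot and left unscaled across arrays. Marks for a signal well above background, saturation and outliers were deposited as 0 or 1, an other unit, and no spot was saturated. The authors used Nexus Expression, and Partek is named in the submitters' processing notes. Neither test nor normalization of the authors is given in the sources used here. A deposited list of the authors' own comparisons holds fold changes of listed probes and was not used. The file headers name the rn4 build, and coordinates given here are only those of the GRCr8 promoter windows from RefSeq.

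Control spots and outlier spots were left out. After log2, each array was shifted by its 75th percentile, with the mean taken over a probe's spots. RefSeq accessions tied the probes to 15154 gene symbols. Probes well above background on at least 3 arrays were kept, 24105 in 49 arrays and 24009 in 46. The fit used limma 3.58.1 under R 4.3.3 (data.table version 1.17.8, jsonlite 2.0.0), with 1 mean per group and 36 residual degrees of freedom. The script was tested on simulated data. Promoters and plots were handled with Python 3.11.15, pandas 2.3.3, numpy 2.4.6 and matplotlib 3.10.9. The labels give each array a replicate number, read here as 1 rat, and the number of arrays limits the precision. The 3 arrays that stand apart were picked after their signals and thyroid markers were seen, so the fit without them is an added alternative.

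Named members were, for each exposure comparison and for age, up to 6 with an unadjusted p under 0.05, the 5 with the smallest p over the 13 groups, the 5 with the largest and the 5 with the smallest SD, and those not well above background on some arrays. Other members, such as Prdx2, Prdx5, Prdx6, Gstp1, Txnip and those of the fit without the 3 arrays, were named after their values were seen. Replicate numbers were tested as pairs by the correlation of same-numbered arrays' deviations from group means. Every pair exceeded 0.1 only in young rats at 6 months (0.16 to 0.34, 3 pairs). Alternatives changed the scaling, background correction, filter, batch terms, array weights, threshold and arrays fitted.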

Additional observations from a re-analysis of the deposited data

Results flagged for a closer look

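Among 73 sets of 4 arrays of named members, 4 held an array far from the rest, where chance alone gives about 1 in 20, and the value is the gap as a share of the group's range. Gsr in the 10-month controls had 1 array at -3.46 and the others at -2.90 to -2.83 (0.893). Gsr after 0.5 kBq had 1 array at -3.21 and the others at -3.05 to -3.02 (0.871). Gsto1 in young rats 3 months after 50 kBq was at 3.62 on array 2, one of the 3 that stand apart, and at 2.00 to 2.10 on the others (0.933). Mgst3 in adults 9 months after 50 kBq was at 1.79 on array 3, the array lowest in muscle markers, and at 2.69 to 2.78 on the others (0.912).

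The log2 of the 75th percentile of signal was 10.53 on 1 array of adults 6 months after 50 kBq and 11.37 to 11.51 on the others (0.855).

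Effects that differed by a limma test of the difference, without the 3 arrays that stand apart, were those of adults against young at 9 months for Prdx3 (1.23, adjusted p 0.0191), Txn2 (1.18, adjusted p 0.0474) and Gsr (-0.96, adjusted p 0.0188), and that of adults at 9 against 3 months for the brighter probe of Txnrd1 (1.35, adjusted p 0.0126). In all 49 arrays 0 members passed an adjusted p under 0.05 in these tests. That rule is looser than the one for a call, and no member was called in these tests in either fit. The share of all probes that passed the looser rule was not counted. All of these differences rest on the same untreated controls, those of adults at 9 months.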

How the results depend on the processing

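Calls of members depended on the fit. For adults at 9 months the count of 0 became 1 with quantile normalization, 12 with array weights and 4 at an adjusted p under 0.05, and it ran from 0 to 2 when 1 array was left out, with 2 without array 3 of the injected adults. Without the 3 arrays that stand apart it was 5, also with scan date, slide or quantile normalization added, 3 with arrays 1 and 2 of the 13-month controls counted as 1 sample, and 2 to 6 with a further array left out (2 without array 1 of either group, 3 without control array 2). For age in controls the count of 3 became 1 with median centring or normexp, 12 with array weights, 5 at an adjusted p under 0.05, 0 in the control groups alone, 0 with arrays 1 and 2 of the 13-month controls as 1 sample, and 0 to 4 with 1 array left out, with 0, 0 and 1 without each 13-month control. Without the 3 arrays it was 5, also with scan date, slide or quantile normalization, 4 with arrays 1 and 2 of the 13-month controls as 1 sample, and 4 to 6 with a further array left out. Over the 13 groups the count of 0 became 1 with slide as a random block, 12 with array weights, 2 at an adjusted p under 0.05 and 0 to 1 with 1 array left out (1 without array 1 or 4 of young rats at 3 months, array 4 at 500 kBq, array 3 of the 4-month or array 1 or 2 of the 7-month controls). In the 46 arrays it was 4, or 3 with scan date, 3 with slide, 5 with quantile normalization, 0 with arrays 1 and 2 of the 13-month controls as 1 sample, and 0 to 5 with a further array left out (0, 0 and 2 without each 13-month control). In young rats at 3 months 6 members passed an adjusted p under 0.05, and leaving out 1 array gave 0 to 5, with 5 and 4 without arrays 1 and 4 of the injected rats. Array weights, which weigh down arrays with large residuals, gave 1 in adults at 3 months, 12 for adults at 9 against 3 months and 8 for adults against young at 9 months, where quantile normalization without the 3 arrays gave 1. The replicate block, with the replicate number as pairing, took age in controls from 3 to 1 and changed no other count of calls. Signs turned for Gpx7 with array weights (-0.011 in young rats at 6 months, -0.19 in adults at 3 months), for Txnrd1 in adults at 9 months with the mean over its probes (-0.064), for Gsr in young rats at 3 months without the 3 arrays (-0.13, also with scan date or slide, and -0.014 with quantile normalization), and, with quantile normalization there, for Sod1 in young rats at 3 months (-0.00468) and Gpx2 at 6 months (-0.038). The cause was not tested. With 2 to 4 arrays in a group, members that missed the threshold may still differ.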
